A study of Arabidopsis thaliana with 24 samples.

Results

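The question addressed here was whether sucrose changed the polysome-associated mRNA of Arabidopsis seedlings differently in the light and in the dark. For each gene, the sucrose effect in darkness was subtracted from the sucrose effect in light, and this light-minus-dark difference was tested in polysomal RNA. The comparison used the 12 polysomal RNA arrays among the 24 arrays of the series, chosen by their labels alone, and set the 12 total RNA arrays beside them at the end. All seedlings were wild-type Col-0, grown in liquid culture under constant light (their age is 10 days in the methods, and the labels give 7 days). They were then kept for 6 h in one of 4 treatments, with 3 arrays each. The light control received 150 mM sorbitol, an osmotic control that the plant hardly uses as a carbon source, and the sucrose treated group received 150 mM sucrose in light. The dark treated group received sorbitol and the dark and sucrose treated group received sucrose, both in flasks kept dark for those 6 h. Each array holds RNA from whole seedlings, from the small polysome fraction of a sucrose gradient, and replicates 7, 8 and 9 of a treatment were separate cultures.

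Sucrose is both the carbon supply of a seedling and a signal. When sugar is plentiful, plants raise transcripts for growth, such as those of ribosomal proteins and of starch and anthocyanin synthesis, and lower transcripts of photosynthesis and of starvation, the latter through the energy-sensing kinase SnRK1 and its bZIP factors. Light acts on many of the same genes through photoreceptors and through the chloroplast. Polysomal RNA is mRNA carrying several ribosomes, so its level reflects both how much of an mRNA is present and how much of it is being translated. Since the arrays hold the small polysome fraction only, a shift of an mRNA between small and large polysomes also changes its level. The paper found largely the same genes affected in both fractions. By qRT-PCR it reports peaks at lower density after sucrose in light for mRNAs with raised polysomal occupancy. The part of such shifts in the differences below was not tested.

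The values are log2 signals normalized between arrays, so an amount shared by all mRNAs is not seen, and the number of arrays limits the precision. Array medians lay between 5.93 and 6.06, and arrays correlated with each other at 0.92 to 0.99 across 30386 gene features of 30174 loci, none of which was removed for a low level. The replicate 9 arrays scattered more around their group means (residual SD 0.279 to 0.332) than those of replicates 7 and 8 (0.205 to 0.256). The markers of whole seedlings were present: the 5 green tissue markers had a median level of 9.11 and the 8 root markers of 6.59, and the 5 seed storage genes lay at 4.48 to 5.41, below the median feature (6.03). None of the root or seed markers passed the test below, and of the green markers only PSAD-1 did. The median over the green markers was 8.15 to 9.09 on the dark and sucrose treated arrays and 9.07 to 9.51 on the others, and its part in the results was not tested. On the control probe sets for RNA integrity, the difference between the 3′ and 5′ ends of actin mRNA changed upon sucrose by 0.34 in light and 0.39 in darkness. For GAPDH mRNA it changed by 0.30 in light and 0.63 in darkness, and the part of this in the light-minus-dark differences was not tested.

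In the polysomal RNA, limma called a light-minus-dark difference for 2347 of 30386 features, 7.72% (adjusted p under 0.05, Benjamini-Hochberg, no fold requirement). At an unadjusted p under 0.05 there were 7020. The sucrose effect was higher in light for 1044 features (3.44%) and higher in darkness for 1303 (4.29%). This balance turned with all 24 arrays in the fit, at 1924 in light against 1583 in darkness, and with features of low mean left out, at 1603 against 1287. The second group had the larger differences, with a median of −1.31 on the log2 scale against 0.93 for the first, and a difference over 1 was seen in 931 features of the second and 429 of the first. Over all features the median difference was 0.03, and with features of low mean left out it was 0.14. A mean level at or above that of the median feature was found in 89.2% of the 1044 features and 75.5% of the 1303. The shares over all features are therefore lowered by weakly expressed features, which matters for lists of well expressed genes. Across all features, the effects in light and in darkness, which share no array, had a Pearson correlation of 0.647, given as a description since genes are not independent replicates.

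**Figure D1:**
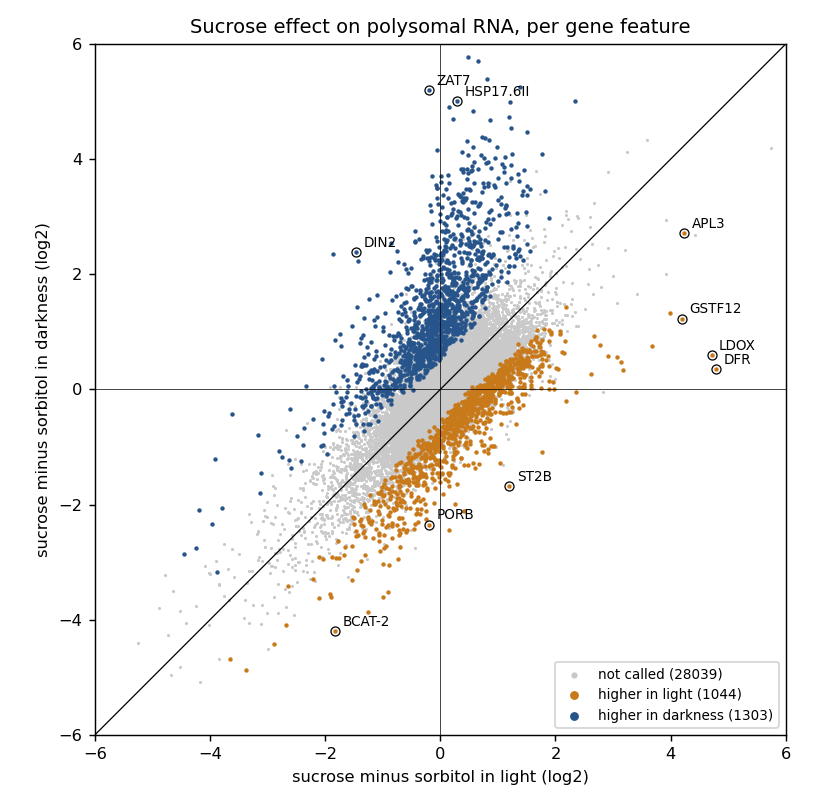
Each point is a gene feature in polysomal RNA, with the log2 change upon sucrose in light on the horizontal axis and in darkness on the vertical axis, each a difference between means of 3 arrays. The diagonal marks equal effects. The 1303 blue features above the diagonal reach 5.77 in darkness, and the 1044 orange features below it include DFR and LDOX, which lie far to the right near 0 in darkness.

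The count depended on which cultures were in the fit. Without replicate 7 the count fell to 122, without replicate 8 to 147, and without replicate 9 it was 3635. Of single arrays left out, 6 lowered it by more than 1.5 times, namely the light control arrays 7 (1313) and 8 (1461), the sucrose treated arrays 7 (1433) and 8 (1260) and the dark treated arrays 7 (1410) and 8 (1194). None of the 2347 features was called with the opposite sign in any of these fits.

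The effects that made up the differences are described next, as counts of calls in each light condition. Sucrose alone raised 17.5% of all features in light and lowered 12.1%, and in darkness it raised 15.1% and lowered 14.1%. These calls share arrays with the light-minus-dark test, so the following counts are a description and no further evidence. Of the 1044 features with a higher effect in light, 383 rose in light with no call in darkness, 314 fell in darkness with no call in light, 196 fell in both, 94 rose in both, 48 rose in light and fell in darkness, and 9 had neither call. Of the 1303 features with a higher effect in darkness, 791 rose in darkness with no call in light, 188 rose in both, 187 fell in light with no call in darkness, 96 fell in light and rose in darkness, 36 fell in both, and 5 had neither call. Read the other way, by what darkness did at a given sugar, 1135 of the 1303 features (87.1%) were higher in darkness in the presence of sucrose and had no call with sorbitol. Of the 1044 features, 706 (67.6%) were lower in darkness in the presence of sucrose and had no call with sorbitol, and 193 were higher in darkness with sorbitol only. Over all 30386 features, darkness raised 3775 and lowered 4084 in the presence of sucrose. With sorbitol it raised 1431 and lowered 948.

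The gene lists here and below were chosen with earlier results of these data known, so their shares are descriptions and no evidence of an excess. Anthocyanin synthesis genes had the largest differences in favour of light among the gene lists. Of 20 measured genes of flavonoid and anthocyanin synthesis, 6 were called with a higher sucrose effect in light (DFR, LDOX, GSTF12, UF3GT, TT5 and TT8), 30% of the list beside 3.44% of all features, and none with a higher effect in darkness. The median difference of the list was 1.18, beside 0.03 for all features, with a median sucrose effect of 2.1 in light and 0.46 in darkness. In light 15 of the 20 rose, and in darkness 5. Since whole seedlings were used, more cells making pigment and more mRNA per cell cannot be told apart.

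DFR, dihydroflavonol reductase, makes the colourless precursors of anthocyanins (feature on chromosome 5, minus strand, 17164141 to 17165918, in coordinates of the array design, whose build is not given in the sources used here). Its polysomal level was 4.44, 4.38 and 3.73 in the light controls and 9.07, 9.97 and 7.88 with sucrose in light. It was 4.16, 5.32 and 3.87 in the dark controls and 4.89, 5.08 and 4.44 with sucrose in darkness. Only the sucrose treated arrays in light stood apart, and the dark groups overlapped. The sucrose effect of 4.79 in light was thus 4.44 ± 0.68 higher than the 0.35 in darkness (SE, n = 3 arrays per group, limma adjusted p = 0.00289).

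LDOX, the anthocyanidin synthase of the next step, followed the same order, with 4.17, 4.26 and 3.55 in the light controls and 8.78, 9.58 and 7.75 with sucrose in light. In darkness it went from 3.88, 4.74 and 3.73 to 4.87, 5.09 and 4.18. Again the dark groups overlapped, and the difference was 4.12 ± 0.60 (SE, limma adjusted p = 0.00223). GSTF12 (TT19), a glutathione transferase needed to bring anthocyanins into the vacuole, rose in both conditions, by 4.2 in light and by 1.23 in darkness. Its levels with sucrose were 9.40, 10.37 and 8.74 in light and 6.78, 6.94 and 5.76 in darkness, from 4.84 to 5.89 in all 6 sorbitol arrays.

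The enzymes that decorate the pigment behaved alike. AT5MAT, a malonyltransferase, and UF3GT, a glycosyltransferase, both of anthocyanins, rose by 3.18 and 3.07 in light, against values of 0.33 and 0.56 in darkness that did not pass the test. Their differences were 2.85 ± 0.56 and 2.52 ± 0.57 (SE, limma adjusted p = 0.0112 and 0.0217). TT5, chalcone isomerase, acts early in the pathway and had a smaller difference (1.92 ± 0.33), with a rise of 1.31 in light. The regulator TT8, a bHLH factor, rose by 2.05 in light, with a difference of 1.69 ± 0.36. For PAP1, the MYB factor that activates the late genes, the rise was 3.92 in light and 2.01 in darkness, and the difference of 1.91 ± 0.90 did not pass (limma adjusted p = 0.231). The early enzymes TT4 and F3H also did not pass, with differences of 1.57 ± 1.16 and 1.12 ± 0.89, and MYBL2, a repressor of the pathway, fell by 3.04 in light and 2.74 in darkness. Single arrays left out gave 5 to 8 calls in the list, and leaving out replicate 7 or 8 gave 0 and 2.

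**Figure D2:**
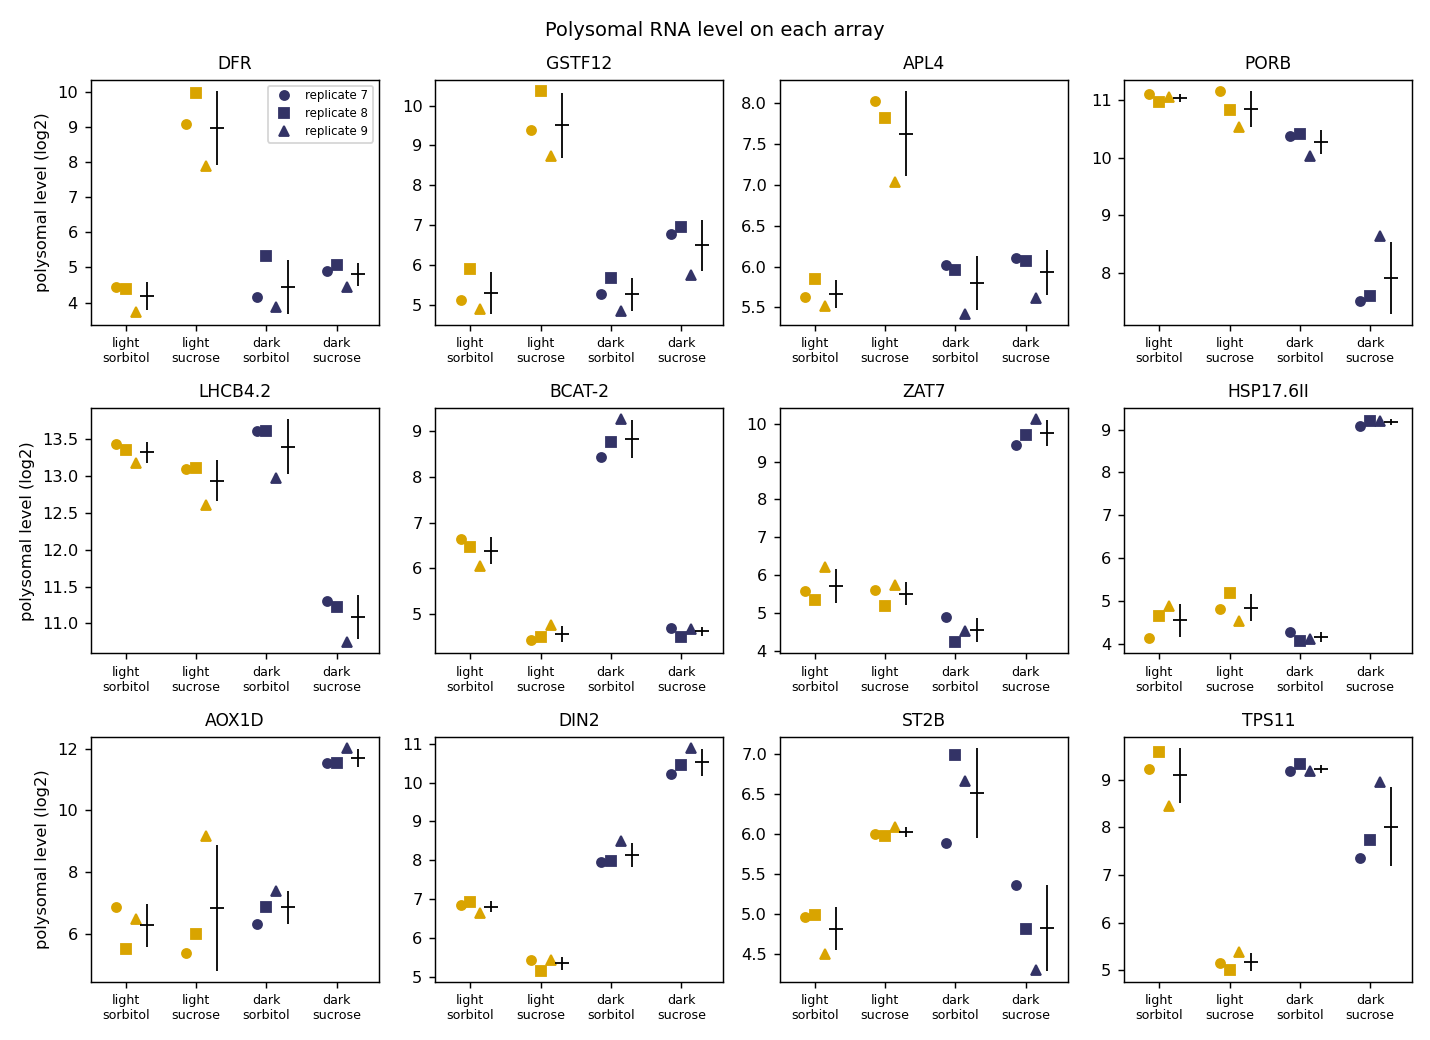
Polysomal log2 level of 12 genes on each of the 12 arrays, by treatment, with symbols for replicates 7, 8 and 9 and a bar for the mean ± SD of 3 arrays. DFR, GSTF12 and APL4 are highest with sucrose in light, PORB and LHCB4.2 are lowest with sucrose in darkness, and ZAT7, HSP17.6II and DIN2 are highest with sucrose in darkness. AOX1D has 1 light sucrose array (replicate 9) at 9.16.

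Among 29 genes of starch metabolism, 3 were called, all with a higher sucrose effect in light (10.3% of the list beside 3.44% of all features, list median 0.17). The list had a median level of 8.47. In the fit with features of low mean left out, 1603 of 15193 features were called higher in light, with a median difference of 0.14, so the list did not stand out. APL3 and APL4 encode large subunits of ADP-glucose pyrophosphorylase, the enzyme that commits carbon to starch. APL4 was at 8.03, 7.82 and 7.04 with sucrose in light and between 5.42 and 6.11 on the other 9 arrays, with a difference of 1.83 ± 0.35 (SE, limma adjusted p = 0.00981). APL3 rose in both conditions, by 4.24 in light and 2.71 in darkness. BAM5, an extraplastidic β-amylase, rose by 0.91 in light against 0.04 in darkness. Its group means lay between 4.34 and 5.35, below the median feature (6.03).

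Sugar transport and sensing genes went both ways, with 3 of 19 called higher in light and 3 higher in darkness (31.6% in either direction, beside 7.72% of all features). SWEET11 and SWEET12, which export sucrose for phloem loading, fell more deeply in darkness: SWEET12 fell by 2.68 in light and by 4.09 in darkness, to 4.63, 5.08 and 5.05. HXK2, a hexokinase, rose by 0.73 in light. In the other direction, the hexose importer STP13 (listed as MSS1) rose by 1.06 in darkness and had −0.50 in light, which did not pass. Sucrose synthase SUS1 and the plastid glucose 6-phosphate translocator GPT1 rose by 1.14 and 0.41 in darkness.

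Cytosolic ribosomal protein genes rose upon sucrose in both conditions. Of 234 features of 230 loci, 210 rose in light and 114 in darkness, with medians of 1.07 and 0.46. The light-minus-dark difference was called for 38, all with the higher effect in light (16.2% of the list beside 3.44% of all features), and was above 0 for 219. The median difference was 0.59, and no alternative moved it outside 0.45 to 0.70. With sorbitol, darkness itself gave a median change of 0.03, whereas in the presence of sucrose it gave −0.58. In the latter case 162 features were lower, beside 4084 of all 30386 features.

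RPL12C (AT5G60670), a protein of the large subunit, had polysomal levels of 5.64, 5.47 and 5.79 in the light controls and 5.67, 5.71 and 5.74 in the dark controls. With sucrose it was at 7.32, 7.55 and 7.38 in light and at 6.37, 6.56 and 6.14 in darkness. The control groups overlapped and the sucrose groups did not, and the difference was 1.14 ± 0.18 (SE, limma adjusted p = 0.00407). RPL13aA (AT3G07110) and RPS19A (AT3G02080) had differences of 1.04 ± 0.21 and 1.03 ± 0.22. The called members came from both subunits and ranged from 0.62 to 1.22. Plant ribosomal proteins are encoded by families of similar copies, and the sharing of probes between copies was not tested.

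Of the members with the opposite sign, RPL10C (listed as SAG24) had the smallest p, with a difference of −0.35 ± 0.14 that did not pass (limma adjusted p = 0.165). The count of 38 depended on single arrays more than the median did. It was 0 without replicate 7 or 8 and 67 without replicate 9. It fell to between 4 and 7 without any of the light control or sucrose treated arrays 7 and 8 or the dark treated array 8. It was 15 without the dark treated array 7, 21 without the dark and sucrose treated array 9, and 68 without the dark and sucrose treated array 8.

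Other parts of the translation machinery had positive medians with few calls. In ribosome biogenesis, 21 of 22 genes rose in light and 18 in darkness (median difference 0.44). The single call, 4.55% of the list beside 3.44% of all features, was OLI2, an rRNA methyltransferase homologue, with rises of 1.67 and 0.92. Among 25 translation factors, TIF3H1, a subunit of initiation factor 3, and eIFiso4G1, a plant-specific scaffold of the cap complex, were called with differences of 0.74 ± 0.18 and 0.67 ± 0.16. These calls made up 8% of the list, beside 3.44% of all features. The biogenesis and translation factor lists had median levels of 8.80 and 9.90. In the fit with features of low mean left out, 1603 of 15193 features were called higher in light, so neither share stood out. eIFiso4G1 rose by 0.68 in light and had 0.01 in darkness.

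Most genes of the photosystems and of light harvesting fell upon sucrose in darkness. Of 44 nuclear genes of the photosystems and antennae, 35 fell in darkness and 8 in light, with medians of −1.01 and −0.39. The difference was called for 4, all with the less negative effect in light (PSAD-1, PSAD-2, LHCB4.2 and PSBX), 9.09% of the list beside 3.44% of all features, and the list median was 0.56. These genes had a median level of 11.69, and in the fit with features of low mean left out, 1603 of 15193 features were called higher in light. LHCB4.2, a minor antenna protein of photosystem II, was at 13.44, 13.35 and 13.17 in the light controls and 13.61, 13.61 and 12.97 in the dark controls. Sucrose left it at 13.09, 13.11 and 12.61 in light, and in darkness it was at 11.30, 11.23 and 10.75. Only the dark and sucrose treated arrays lay apart from the rest, and the difference was 1.93 ± 0.30 (SE, limma adjusted p = 0.00304).

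PORB, the light-dependent protochlorophyllide oxidoreductase, fell by 2.35 with sucrose in darkness, to 7.51, 7.61 and 8.63, and was between 10.03 and 11.16 on the other 9 arrays. GUN4, an activator of magnesium chelatase in the same pathway, fell by 2.45 in darkness against −0.58 in light, which did not pass. The pair made up the calls in favour of light in the list of 25 light signalling genes, and HYH, a bZIP relative of HY5, was called the other way (−1.06 ± 0.25), with a fall of 0.94 in light. Calls were 12% of this list in either direction, beside 7.72% of all features and 2890 of 15193 with features of low mean left out. Of 19 Calvin cycle genes, 7 fell in light and 9 in darkness, among them 4 that fell in both (RCA, SBPASE, PRK and CP12-2, named for this count after their values were seen). For the light-minus-dark difference only transketolase TKL1 (AT3G60750) was called (5.26% of the list beside 4.29% of all features), with a fall of 0.65 in light against −0.04 in darkness. None of 12 photorespiration genes was called, and AGT, a peroxisomal aminotransferase, fell by 1.99 in light and fell by 2.49 in darkness.

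**Figure D3:**
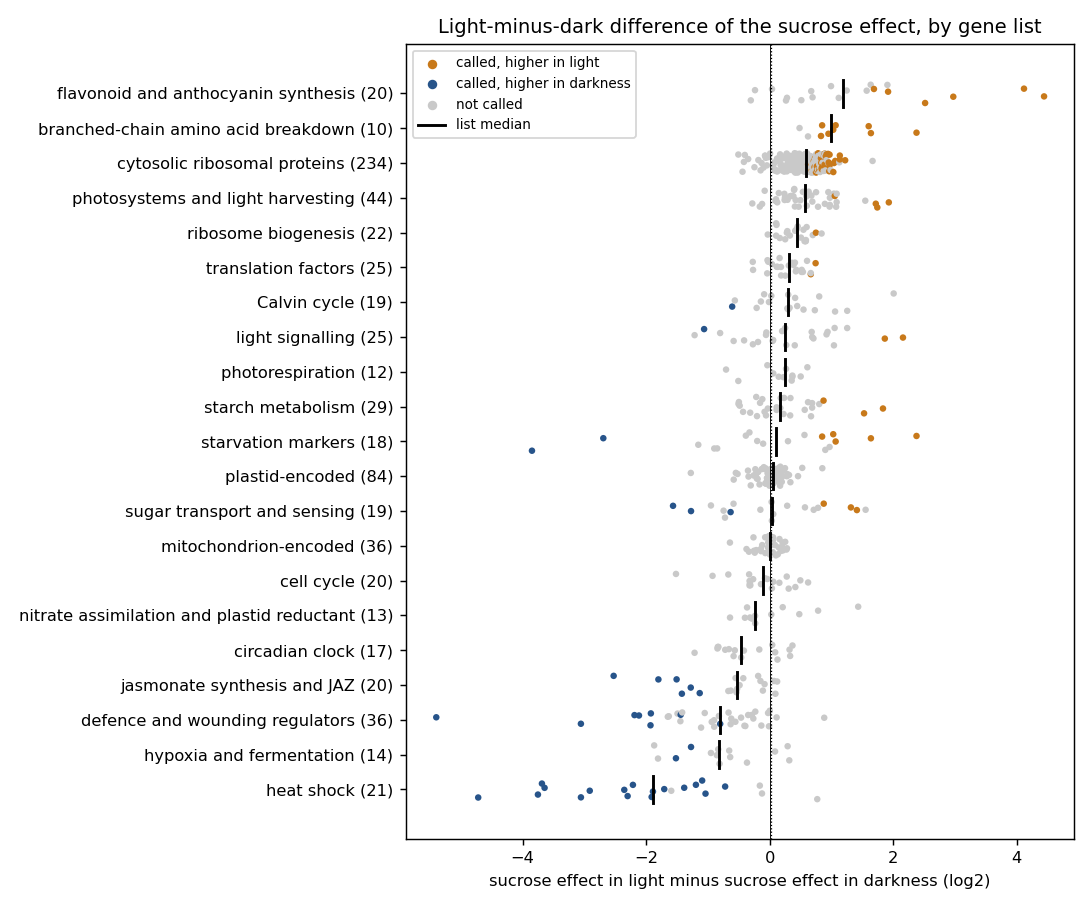
Each point is a list member in polysomal RNA, placed by its sucrose effect in light minus that in darkness (log2), with list sizes in parentheses, a black bar at the list median and a dotted line at the median of all features (0.03). The flavonoid list (median 1.18) and the branched-chain amino acid list (0.99) lie at the top, and 17 of 21 heat shock genes are called on the side of darkness (median −1.89).

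Branched-chain amino acid breakdown, which feeds mitochondrial respiration when sugar is short, was lowered by sucrose, and more so in darkness. Of 10 genes, 8 fell in light and 10 in darkness, with medians of −1.44 and −2.66. The difference was called for 8, all higher in light (80% of the list beside 3.44% of all features, list median 0.99). In the dark controls these mRNAs were higher than in the light controls, called for 7 of 10, beside 1431 of all 30386 features. In the presence of sucrose the dark and light groups had a median difference of −0.07.

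BCAT-2, the mitochondrial aminotransferase that starts the pathway, had the largest difference of the list. It was at 6.63, 6.46 and 6.05 in the light controls and 8.43, 8.77 and 9.26 in the dark controls. Sucrose brought it to 4.42, 4.5 and 4.75 in light and 4.69, 4.5 and 4.67 in darkness. The sorbitol groups lay far apart and the sucrose groups overlapped, so that the fall of 4.2 in darkness exceeded that of 1.83 in light by 2.38 ± 0.29 (SE, limma adjusted p = 0.00073). With sucrose its levels lay below the median feature (6.03), near the lower quartiles of the polysomal arrays (4.05 to 4.25). Whether this limited the fall in light was not tested. IVD and MCCB, enzymes of leucine breakdown, had differences of 1.64 ± 0.31 and 1.6 ± 0.21. The 8 calls became 5 with quantile normalization and 3 to 6 without single arrays, where only the light control arrays 8 and 9 and the sucrose treated array 9 left 6.

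The 18 starvation markers, of which 4 are also branched-chain genes, did not share a direction. Sucrose lowered 17 in light and 15 in darkness. For the difference, 5 were called with the deeper fall in darkness, and DIN2 and TPS11 were called the other way. Calls were 38.9% in either direction, beside 7.72% of all features (list median 0.09). SEN1 and ASN1, classical dark-induced genes, fell by 4.53 and 4.18 in light and by 4.82 and 5.08 in darkness, with no called difference. TPS11, a class II trehalose phosphate synthase protein, went against them. It was at 5.16, 5.0 and 5.38 with sucrose in light and at 7.36, 7.73 and 8.95 with sucrose in darkness, from 8.46 to 9.59 on the 6 sorbitol arrays. Its fall of 3.91 in light was 2.69 ± 0.51 deeper than that of 1.22 in darkness (SE, limma adjusted p = 0.00833).

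Most heat shock genes rose upon sucrose in darkness. Of 21 genes, 17 were called with a higher sucrose effect in darkness (81.0%, beside 4.29% of all features) and none the other way. In darkness 16 rose, with a list median of 1.84, and in light 3 rose and 4 fell, with a median of 0.12. The median difference was −1.89 and lay between −2.05 and −1.73 under the alternatives run. The counts were 16 to 18 without single arrays, 7 without replicate 7 and 6 without replicate 8.

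HSP17.6II, a cytosolic small heat shock protein (chromosome 5, minus strand, 3882237 to 3882938), had 4.13, 4.64 and 4.89 in the light controls and 4.82, 5.18 and 4.54 with sucrose in light. It had 4.28, 4.07 and 4.12 in the dark controls and 9.09, 9.21 and 9.21 with sucrose in darkness. All 9 other arrays lay below the median feature, and the difference was −4.72 ± 0.28 (SE, limma adjusted p = 6.71e-06). HSP17.4 and HSP18.2 of the same family and the chloroplast protein HSP21 had differences of −3.75 ± 0.26, −3.64 ± 0.31 and −3.69 ± 0.30.

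Larger chaperones moved in the same direction by less. HSP101, a disaggregase, rose by 2.46 in darkness, and HSP90.1 rose by 1.0 in light and 3.30 in darkness. HSFA2, the factor that sustains the heat response, rose by 1.84 in darkness. DREB2A, a drought and heat factor, fell by 1.09 in light and rose by 1.26 in darkness. Galactinol synthase GolS1 was called through its fall of 1.49 in light, against a value of 0.42 in darkness that did not pass. HSFA7A went the other way, with a fall of 1.21 in darkness and a difference of 0.77 ± 0.43 that did not pass.

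Defence and wound regulators, jasmonate genes and several of the largest single differences lay on the same side. Of 36 defence and wounding regulators 8 were called, all higher in darkness (22.2%, median −0.81), and of 20 genes of jasmonate synthesis and JAZ repressors 6 were called, all higher in darkness (30%, median −0.53), beside 4.29% of all features. ZAT7, a zinc finger repressor of stress responses (chromosome 3, minus strand, 16926216 to 16926850), had the largest difference of all features. It was at 5.57, 5.35 and 6.22 in the light controls and 5.62, 5.18 and 5.75 with sucrose in light. It was at 4.89, 4.24 and 4.53 in the dark controls and rose to 9.44, 9.71 and 10.12 with sucrose in darkness. The difference was −5.40 ± 0.36 (SE, limma adjusted p = 1.54e-05). Its relative ZAT12 (listed as RHL41) rose by 3.05 in darkness against −0.01 in light, and the defence regulator WRKY40 rose by 0.63 in light and 2.56 in darkness.

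In jasmonate synthesis, the lipoxygenase LOX4 rose by 3.18 in darkness and the allene oxide cyclase AOC3 by 0.88 in light and 2.3 in darkness. JAZ5, a repressor of jasmonate responses, rose by 1.72 in darkness. JAZ6, JAZ3 and JAZ2 (TIFY10B) had differences of 0.12, 0.07 and 0.09, none of which passed.

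Enzymes of secondary metabolism, hormone synthesis and respiration completed the 10 largest differences toward darkness among named genes with a mean over the 12 arrays at or above the median feature (6.03). In ZAT7, ABCG40 and HSP17.4 only the dark and sucrose treated group lay above that level, so they passed through the group in which they were high, as did AT5MAT and UF3GT through the sucrose treated group in light. PAD3, BCA3 and GSTF12 lay below that level in both sorbitol groups, so their passing also rested on the groups with sucrose. Their sorbitol means in light and darkness were 5.01 and 5.36, 5.33 and 5.31, and 5.30 and 5.26. PAD3, which makes the phytoalexin camalexin, rose by 1.38 in light and by 5.26 in darkness. ACS2, an ethylene synthesis enzyme, was at 10.36, 10.35 and 10.54 with sucrose in darkness and between 5.48 and 7.60 on the other 9 arrays. GPAT2, a glycerol 3-phosphate acyltransferase, rose by 3.71 in darkness against −0.15 in light, and the β carbonic anhydrase BCA3 by 5.39 against 0.81. For both, the light value did not pass the test.

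In several of these genes a single array stood apart. AOX1D, an alternative oxidase of the mitochondrial respiratory chain, was at 11.52, 11.53 and 12.03 with sucrose in darkness. With sucrose in light it was at 5.39, 5.98 and 9.16, the last from replicate 9. Its difference was −4.27 ± 1.07 (SE, limma adjusted p = 0.0322), and −5.43 without that array. The transporter ABCG40 likewise had 5.04, 5.25 and 7.34 with sucrose in light, against 9.46, 9.51 and 10.20 in darkness. With sucrose in light PAD3 was at 5.85, 5.84 and 7.47 and ACS2 at 5.99, 5.67 and 7.60. In each case the last value was from replicate 9, so the rise of PAD3 in light rested partly on that array.

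Of 14 hypoxia and fermentation genes, 11 rose in darkness and 3 in light, with a median difference of −0.82, and SUS1 and the transcription factor HRE2 (listed as ERF71) were called, both higher in darkness (14.3% of the list beside 4.29% of all features). Replicate 9 stood apart here too. The oxygen-sensing oxidase PCO2 (AT5G39890) was at 6.54, 6.91 and 10.32 with sucrose in light and 6.81, 6.93 and 8.93 in the dark controls, the last value in each case from replicate 9. PCO1 (AT5G15120) was at 5.19, 5.62 and 8.51 in the dark controls. The part of this in the other differences was not tested.

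For 144 features, sucrose had called effects of opposite sign, 48 with a rise in light and a fall in darkness and 96 with a fall in light and a rise in darkness. All 144 passed the test of the difference, which is built from the same effects in the same fit and is no further evidence. DIN2, a β-glucosidase named for its induction by darkness (chromosome 3, plus strand, 22216672 to 22220824), was at 6.84, 6.93 and 6.64 in the light controls and 5.42, 5.16 and 5.44 with sucrose in light. It was at 7.94, 7.98 and 8.50 in the dark controls and 10.21, 10.46 and 10.90 with sucrose in darkness. No 2 of the 4 groups overlapped. The fall of 1.47 in light and the rise of 2.38 in darkness differed by −3.85 ± 0.27 (SE, limma adjusted p = 2.13e-05).

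UGT75B1, a glycosyltransferase, fell by 1.42 in light and rose by 2.23 in darkness. The cytochrome P450 CYP89A6 fell by 0.87 and rose by 2.03, and AT2G36770, without a name in the reference table, fell by 1.86 and rose by 2.35. The opposite order was found in ST2B, a sulfotransferase, which went from 4.97, 4.98 and 4.5 to 5.99, 5.97 and 6.09 in light and from 5.89, 6.99 and 6.66 to 5.36, 4.82 and 4.3 in darkness. All of its values lay near or below the median feature except for 2 of the dark controls. GATA4, a GATA-type factor, rose by 0.68 in light and fell by 1.30 in darkness, and AT5G50335 and AT4G34770, both unnamed and weakly expressed, rose by 1.77 and 1.03 and fell by 1.08 and 1.28.

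The remaining large differences in favour of light were of 2 kinds. IPMI1, a subunit of an isomerase that lengthens methionine for glucosinolates, and TBL26, of a family with members that acetylate cell wall polysaccharides, rose by 2.36 and 2.91 in light, against −0.05 and 0.58 in darkness, which did not pass. The esterase MES10, the expansin EXP3 and the cell wall protein DGR2 instead fell in darkness, by 2.45, 1.99 and 2.94, and DGR2 also fell in light, by 0.74. DGR2 was at 8.96, 9.16 and 8.70 with sucrose in darkness and between 10.25 and 12.14 on the other 9 arrays, with a difference of 2.2 ± 0.28 (SE, limma adjusted p = 0.00114).

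Several lists of genes that respond to light or sugar had no call. Of 13 nitrate assimilation genes 8 rose in each condition, while 3 fell in light and 2 in darkness. NIA2, a nitrate reductase, was among those that fell in light, by 0.84. UPM1, a methyltransferase of sirohaem synthesis, rose by 2.27 in light and 1.49 in darkness. None of 17 clock genes was called (median −0.46), and the largest, PRR9 and FKF1, had differences of −1.22 ± 0.41 and −0.83 ± 0.29. None of 20 cell cycle genes was called, and CYCD3;1, a D-type cyclin that responds to sucrose, rose by 0.71 in light against 0.09 in darkness. The 84 plastid-encoded and 36 mitochondrion-encoded features had medians of 0.06 and 0.00 and no call.

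In total RNA of the same 12 cultures, the same difference was called for 774 features with the higher effect in light (2.55%) and 1138 with the higher effect in darkness (3.75%). In total RNA the difference was 3.51 for DFR, 3.6 for LDOX, −3.67 for DIN2 and 2.02 for PORB. Whether polysomal and total RNA differed in their light-minus-dark difference was tested in one fit over the 24 arrays. No feature passed (limma, smallest adjusted p = 0.974, 792 features or 2.61% at an unadjusted p under 0.05). That fit took the arrays of a culture as unrelated, although both kinds of RNA came from one extract and correlated within a culture (0.417). This lowers the sensitivity of the test, so the lack of calls does not show that both kinds of RNA were alike. With the culture as a random block, 3 features passed, AGL97, AT1G70885 and AT2G10160, which are named for this reason only. For ZAT7 the difference was −5.40 in polysomal and −3.58 in total RNA, and for the ribosomal proteins the list medians were 0.59 and 0.36, with 12 members called in total RNA in favour of light and 1 in favour of darkness. The contrast of polysomal with total RNA was not called for ZAT7.

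**Figure D4:**
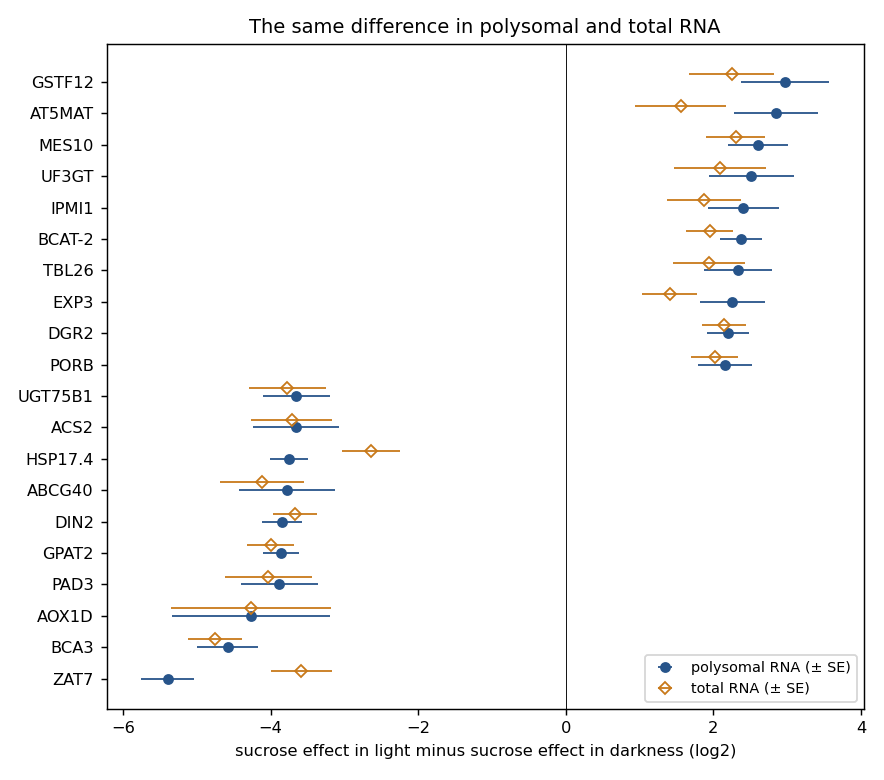
Sucrose effect in light minus that in darkness (log2, ± SE from limma, 3 arrays per group) for the 20 genes with the largest called differences by the naming rule, in polysomal RNA (filled circles) and total RNA (open diamonds). All 20 have the same sign in both, and the largest gap is that of ZAT7 (−5.40 and −3.58).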

How the data were processed

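RNA of the small polysome fraction was hybridized to AGRONOMICS1 tiling arrays. The authors used RMA, which corrects the background, normalizes the arrays and combines the probes of a gene. The paper does not state outright whether total and polysomal arrays were normalized as one set. The deposited log2 values were used as given (no column was left unmapped). The 371 rows of array controls were left out, and 29586 of 30174 loci were found in a reference gene table, used for names only. With limma 3.58.1 in R 4.3.3, 4 group means were fitted to the 12 polysomal arrays (8 residual and 3.78 prior degrees of freedom), and p-values were adjusted over all 30386 features. Total RNA was fitted alike, and both together with 8 means. The fit was tested on simulated data with independent noise on each array, so deviations shared by replicate number were not part of that test. Figures used matplotlib 3.10.9.

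Named genes are the 10 largest called differences per direction with one sign in all replicate numbers, a mean at or above the median feature (6.03) and a symbol, the 4 largest opposite-sign features per direction, and in each list the 3 smallest p-values per direction, of which those informative for a list are described. List members had to carry the listed name in the reference table. The members and lists were chosen with earlier results of these data known.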

Additional observations from a re-analysis of the deposited data

Results flagged for a closer look

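Light and darkness differed in the sucrose effect, by the test of the difference itself, for 2347 features. For 144 features the effects in light and in darkness were each called with opposite sign. The 8 features with the largest such differences (sucrose effect in light minus that in darkness, log2, limma) were, with a fall in light and a rise in darkness, AT2G36770 (−4.21), DIN2 (−3.85), UGT75B1 (−3.65) and CYP89A6 (−2.91). With a rise in light and a fall in darkness they were ST2B (2.89), AT5G50335 (2.85), AT4G34770 (2.31) and GATA4 (1.97). Groups of 3 arrays are too small for a test of single outlying arrays.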

How the results depend on the processing

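The light-minus-dark difference was called for 2347 features, 1044 higher in light and 1303 in darkness. With the 24 arrays in one fit the calls were 1924 higher in light and 1583 in darkness, and with a filter on low means 1603 and 1287, so the larger side turned. A difference over 1 was met by 1360 features (429 higher in light), and an adjusted p under 0.01 by 758 (204 and 554). Quantile normalization and median centring left 2266 and 2278 of the calls in place. Same-numbered polysomal arrays deviated from their group means with correlations of −0.01 to 0.39, above 0.1 in 14 of 18 pairs. In 27 of 36 comparisons an array correlated best with its own number, a hint from the data. The running numbers in the sample titles also cover all treatments of one replicate number before the next. No label names a shared batch and not every pair was above 0.1, so the fit as reported held no block. A pairing by replicate number is not excluded. With a replicate block there were 3361 calls, and 3032 in total RNA (1912 without it).

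Ribosomal protein calls were 89 with all 24 arrays, 80 with the filter, 6 with a difference over 1 and 1 at an adjusted p under 0.01. Flavonoid calls were 3 at that p, and branched-chain calls were 5 with quantile normalization, 5 with a difference over 1 and 3 at that p.

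Leaving out replicates or arrays gave 122 to 3635 calls in all, 13 to 1804 higher in light, 109 to 1831 higher in darkness, 4050 to 10197 for sucrose in light, 4394 to 10447 for sucrose in darkness, 13 to 2398 in total RNA and 0 to 0 for polysomal minus total RNA (3 with the culture as a random block). The list counts were 0 to 68 for ribosomal proteins, 0 to 9 for flavonoid, 6 to 18 for heat shock and 0 to 7 for branched-chain genes. The difference of PCO2 (AT5G39890), 0.09 and not called, was −1.40 without replicate 9 (limma adjusted p = 0.0102) and at most 0.85, without replicate 7.

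Of 62 named genes that were called, none changed sign in the alternatives run. Without replicate 7, 8 or 9, 50, 47 and 1 of them lost the call. For 13 it was lost without at least 1 single array, namely AOX1D, UF3GT, APL3, HXK2, GPT1, STP13 (MSS1), DIN4, TKL1 (AT3G60750), HYH, HRE2 (ERF71), OLI2, TIF3H1 and eIFiso4G1. Fits without a replicate have 8 arrays. Weakly hybridizing features limit what these counts can show.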

Other observations

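A few gene families were examined after the values had been seen, by symbol, so their counts are descriptions. Of 78 NAC transcription factors, 20 had a higher sucrose effect in darkness and none a higher effect in light (25.6%, beside 4.29% of all features, with a median of −0.32 beside 0.03). Sucrose raised 29 of them in darkness and 5 in light. NAC094 rose by 3.49 in darkness against −0.06 in light, which did not pass, with a difference of −3.55 ± 0.20 (SE, limma adjusted p = 6.71e-06). NAC032 rose by 2.45 in darkness, and NAC13 and NAC053 by 2.02 and 1.34. NAC083 and NAC069 were called as well, and both fell in light, by 0.50 and 0.46.

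The tau class of glutathione S-transferases, which conjugate electrophiles, had 7 of 27 members with a higher effect in darkness and none in light (25.9%, beside 4.29% of all features, median −0.65). GSTU4 rose by 4.32 in darkness, with a difference of −3.86 ± 0.53, and GSTU24 rose by 1.12 in light and 3.16 in darkness. Neighbouring tau class genes such as GSTU3 and GSTU4 are similar in sequence, and sharing of probes was not tested. Of 61 features of UDP-glycosyltransferases, which attach sugars to small molecules, 18 had a higher effect in darkness and 1 in light. These were 31.1% in either direction, beside 7.72% of all features (median −0.32). The 61 features are of 58 loci and the 18 of 15, since some loci have several features on the array.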
